A study of Mus musculus with 47 samples.

Results

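The mitochondrial respiratory chain passes electrons from NADH and succinate to oxygen through complexes I to IV, and ATP synthase, complex V, uses the proton gradient they build to make ATP. Most of its subunits are encoded in the nucleus and a small core in mitochondrial DNA, so the nuclear genes have to be matched to each other and to the mitochondrial genome. Neurons depend on this chain for most of their ATP, and its failure has long been studied in Huntington's disease. The nuclear genes were taken here by name: symbols beginning with Nduf and a subunit letter and number, the 4 succinate dehydrogenase genes, and symbols beginning with Uqcr, Cox and a digit for complex IV, or Atp5. This gave 84 genes after 6 names of pseudogenes were set aside, and 82 had at least 10 counts in at least 7 libraries, of 19330 genes that met the same rule among 48795 in all. They comprised 37 genes of complex I, 4 of complex II, 8 of complex III, 16 of complex IV and 17 of complex V. The rule leaves out Cyc1, the gene of cytochrome c1 in complex III, because its name does not match. Cox8b and Cox8c, a muscle-type and a testis-type form of a complex IV subunit, reached 10 counts in 0 libraries, with medians of 4 and 0 counts. A name is not always a place in the complex: Ndufa4 is counted under complex I by its name although the protein belongs to complex IV, Cox7a2l is a factor for assembling supercomplexes, Atp5s is a coupling factor, and Atp5sl, named Dmac2 in the GENCODE M21 annotation, is an assembly factor of complex I.

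The genes were measured by RNA sequencing of the cerebral cortex of 47 C57BL mice aged 6 months, 23 females and 24 males, with each library treated as 1 mouse. There were 8 mice with Q140, 8 with Q140 and Ccdc82+/-, 7 with Q140 and Ccdc82-/- (3 females and 4 males), 8 with Ccdc82+/-, 8 with Ccdc82-/- and 8 wild-type mice (WT), and each group of 8 held 4 females and 4 males. Q140 is a knock-in of an expanded CAG repeat in the mouse Htt gene, the gene of Huntington's disease, and carriers are heterozygous by their titles. Ccdc82+/- mice lack 1 copy and Ccdc82-/- mice both copies of Ccdc82, which encodes a coiled-coil protein, and the crosses asked whether this changes expression with or without Q140.

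Library totals lay between 43554594 and 61370843 counts, with a median of 50473683, and the 82 genes took 0.665% to 0.712% of them. Ccdc82 averaged 2.99 ± 0.242 FPKM in Q140 x Ccdc82-/- mice (SD, n = 7) against 8.48 ± 0.514 FPKM in Q140 mice (n = 8), and 2.87 ± 0.341 FPKM in Ccdc82-/- mice (n = 8) against 8.76 ± 0.836 FPKM in WT mice (n = 8). Its transcript was lower but not at 0 in the mice labelled Ccdc82-/-. Xist and a Y-linked gene matched the labelled sex in 47 of 47 libraries. Replicates of a group differed by more than sampling noise, with a chi-square per gene of at least 3.67 over 161 pairs.

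Levels are given in FPKM, counts scaled to gene length and library total, as mean ± SD over the 47 mice. ATP synthase and complex IV held the most abundant transcripts. In complex IV, Cox8a, the smallest transmembrane subunit, stood at 329 ± 13.5 FPKM and Cox6a1 at 207 ± 11.3 FPKM. In complex V the genes of the alpha and beta subunits, which form the catalytic head, stood together, with Atp5a1 at 222 ± 5.89 FPKM and Atp5b at 221 ± 4.32 FPKM, a difference smaller than the spread between mice. In complex I the accessory subunit gene Ndufb9 was highest at 136 ± 3.99 FPKM, followed by Ndufa4 at 85.8 ± 3.24 FPKM. In complex III the small subunit genes Uqcr10 and Uqcrh were highest of those taken by name, at 71.6 ± 3.03 and 68.3 ± 2.29 FPKM. Their ranges over mice overlapped, and Uqcrb was lowest at 25.6 ± 0.958 FPKM. Cyc1, which the rule leaves out, stood above them at 87.8 ± 2.59 FPKM. In complex II the order was Sdha, the flavoprotein, at 94.4 ± 2.32 FPKM, then Sdhd, a membrane anchor, at 42.3 ± 1.35 FPKM, Sdhb, the iron-sulphur subunit, at 30.8 ± 1.03 FPKM, and Sdhc, the other anchor, at 17.9 ± 0.660 FPKM. The 4 levels of complex II did not overlap between mice.

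**Figure D1:**
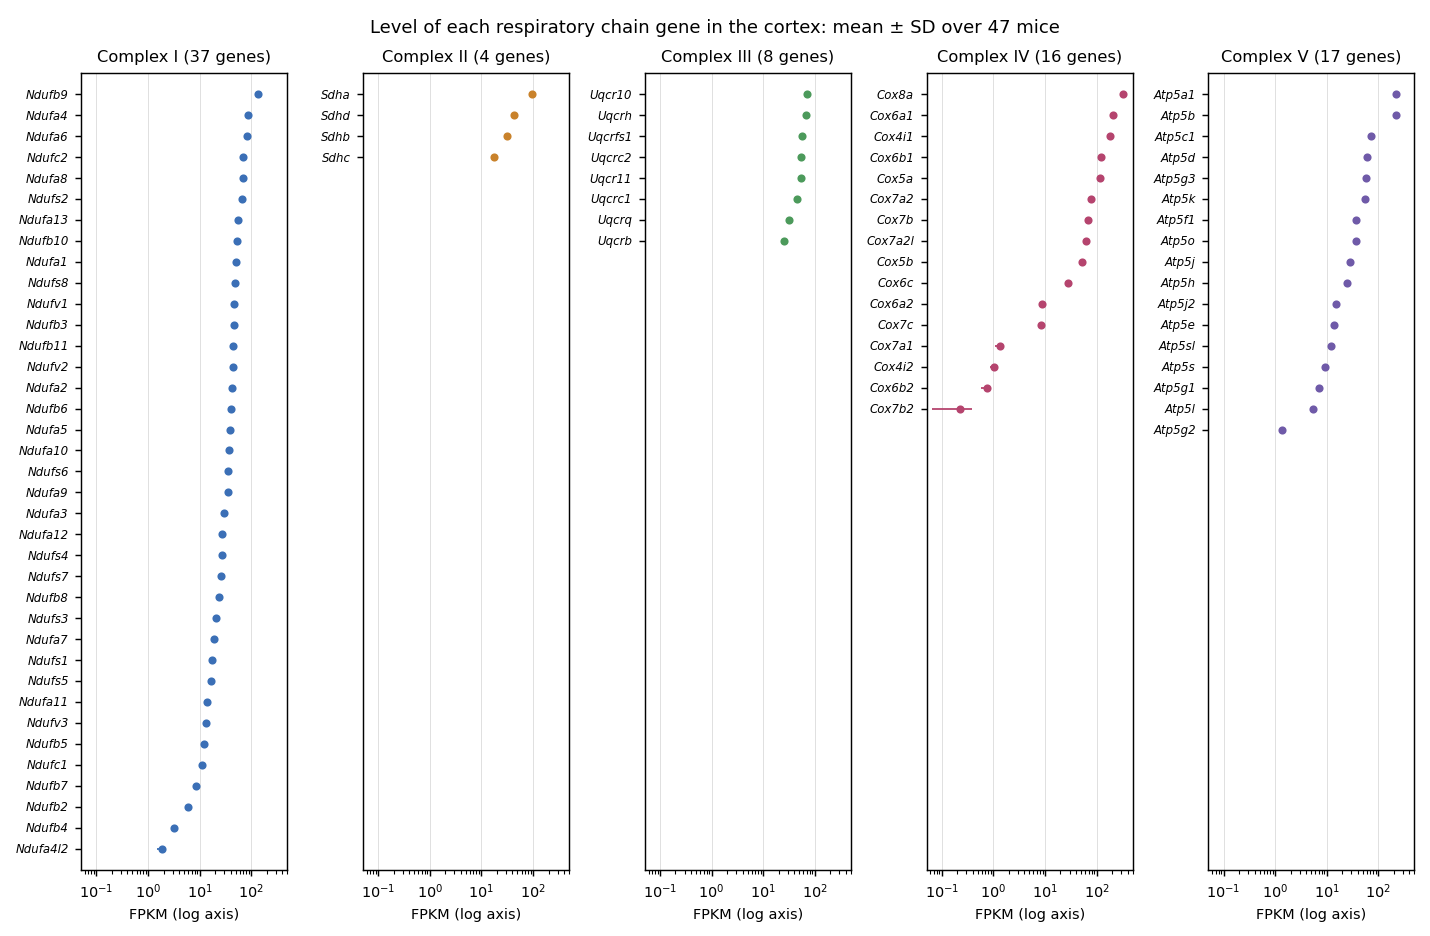
Mean FPKM (log axis) of the 82 genes in 5 panels, 1 for each complex, with genes ordered by level; points are means over 47 mice and bars are SDs. Most genes lie between 10 and 100 FPKM, and the paralogs Cox7b2, Cox6b2, Cox4i2 and Cox7a1 of complex IV and Atp5g2 of complex V lie far below their complex.

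The deposited length equals the union of all annotated exons for 59 of the 82 genes within 0.5 bases. Ndufb2 was scaled by 5628 bases and Atp5g1, a gene of ATP synthase subunit c, by 4912 bases, against a median of 1423 bases for the 82 genes. Some genes had few counts and share sequence with other genes. Of the 50-base stretches of the transcripts of Cox7c, a complex IV subunit gene with a median of only 473 counts, 22.1% also occur in other genes, 3 of them pseudogenes. For Atp5g2, a second gene of subunit c, with a median of 114 counts, the share was 38.4%, and for Ndufb4, with a median of 187 counts, 18.3%. Genes with more counts shared sequence too. Atp5o had the largest share, 41.6%, with a median of 4103 counts. Uqcrb, the lowest of complex III above, had 25.5% with a median of 1122 counts. In all, 19 of the genes shared more than 10% of their stretches, 0 shared more than 50% and 33 shared 0. Reads from such stretches can be lost or assigned to a copy, so these levels are uncertain.

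Several complex IV subunits, and Ndufa4 and subunit c of ATP synthase, have more than 1 nuclear gene, some with a form known from muscle, lung or testis. The widely expressed form was the higher in each set. Cox4i1 stood at 178 ± 5.17 FPKM and Cox4i2, known from lung and smooth muscle, at 1.05 ± 0.173 FPKM. Cox6a2, the heart and muscle form, reached 8.69 ± 0.941 FPKM beside the 207 FPKM of Cox6a1, with at least 238 counts in each library. Cox7a2 and Cox7a2l stood at 76.4 ± 2.74 and 62.4 ± 1.999 FPKM, against 1.36 ± 0.258 FPKM for the muscle form Cox7a1. Cox6b1 was at 120 ± 4.77 FPKM and Cox7b at 68.2 ± 2.24 FPKM, while their testis forms Cox6b2 and Cox7b2 were at 0.749 ± 0.163 and 0.221 ± 0.156 FPKM. Ndufa4l2, a hypoxia-induced relative of Ndufa4, was at 1.83 ± 0.302 FPKM. Of the subunit c genes, Atp5g3 led with 56.6 ± 1.76 FPKM, ahead of Atp5g1 at 7.00 ± 0.407 FPKM and Atp5g2 at 1.37 ± 0.174 FPKM.

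Promoters of respiratory chain genes are known for sites of NRF1, ETS factors such as GABP (NRF2) and YY1, and for often lacking a TATA box. RefSeq promoters on GRCm38.p6, 250 bases before to 50 after a start site, were at hand for 65 of the 82 genes. Letters were searched on both strands. The 10-letter core of the NRF1 site, a palindrome, occurred in 5 of 65 genes (7.69%), against 1.07% of all 27025 genes and 1.47% of coding genes in the same table. The shorter TGCGCA, which can overlap the NRF1 core by up to 5 bases, occurred in 26.2%, against 1924 of 17491 coding genes. The ETS core CCGGAAG was found in 24.6%, against 12.9% of coding genes, and the YY1 core AAGATGGC in 13.8%, against 3.57%. TATAAA was found in 9.23%, against 14.8% of coding genes. These are matches of letters and not shown to be sites, and the GC content of the promoters was close to that of coding genes, with medians of 57.3% and 56.3%.

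Promoters of 5 genes that the results turn on are shown 5′ to 3′ in the gene's direction, with the NRF1, TGCGCA, ETS and YY1 letters in capitals: Cox8a for the highest level, Cox6a1 for all of the NRF1 core, TGCGCA and ETS letters together, Cox5a and Uqcr11 for the comparisons below, and Ndufs7 for the YY1 core close to its start. The windows, on GRCm38.p6, are chr19:7217567-7217866 (minus strand) for Cox8a, chr5:115348909-115349208 (minus strand) for Cox6a1, chr9:57520982-57521281 (plus strand) for Cox5a, chr10:80406772-80407071 (minus strand) for Uqcr11 and chr10:80249199-80249498 (plus strand) for Ndufs7. None of the capital letters sets occurred in the Cox5a window, which says only that these letters are not in it.
Cox8a: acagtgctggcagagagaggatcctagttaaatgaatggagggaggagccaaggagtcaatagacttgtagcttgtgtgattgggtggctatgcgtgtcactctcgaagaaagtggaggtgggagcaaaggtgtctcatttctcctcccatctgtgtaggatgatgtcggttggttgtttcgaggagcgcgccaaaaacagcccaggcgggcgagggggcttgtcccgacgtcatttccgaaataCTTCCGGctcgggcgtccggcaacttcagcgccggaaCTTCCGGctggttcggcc
Cox6a1: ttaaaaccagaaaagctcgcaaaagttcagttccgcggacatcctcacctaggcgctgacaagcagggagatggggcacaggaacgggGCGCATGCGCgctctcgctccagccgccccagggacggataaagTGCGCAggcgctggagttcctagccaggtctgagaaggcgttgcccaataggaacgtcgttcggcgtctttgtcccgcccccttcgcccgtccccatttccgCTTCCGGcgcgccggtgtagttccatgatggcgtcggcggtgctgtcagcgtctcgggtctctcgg
Cox5a: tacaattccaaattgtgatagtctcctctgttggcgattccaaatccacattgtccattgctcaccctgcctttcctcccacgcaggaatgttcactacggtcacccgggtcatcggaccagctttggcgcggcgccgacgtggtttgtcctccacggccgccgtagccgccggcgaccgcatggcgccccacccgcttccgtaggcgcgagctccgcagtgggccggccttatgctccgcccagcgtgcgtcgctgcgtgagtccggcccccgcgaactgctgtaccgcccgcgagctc
Uqcr11: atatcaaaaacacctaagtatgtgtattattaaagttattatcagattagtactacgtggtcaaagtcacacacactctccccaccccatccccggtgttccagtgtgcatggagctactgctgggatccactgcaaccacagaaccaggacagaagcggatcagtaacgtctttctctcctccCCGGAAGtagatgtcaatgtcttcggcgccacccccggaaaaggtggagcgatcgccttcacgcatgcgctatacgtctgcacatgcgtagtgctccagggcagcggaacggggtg
Ndufs7: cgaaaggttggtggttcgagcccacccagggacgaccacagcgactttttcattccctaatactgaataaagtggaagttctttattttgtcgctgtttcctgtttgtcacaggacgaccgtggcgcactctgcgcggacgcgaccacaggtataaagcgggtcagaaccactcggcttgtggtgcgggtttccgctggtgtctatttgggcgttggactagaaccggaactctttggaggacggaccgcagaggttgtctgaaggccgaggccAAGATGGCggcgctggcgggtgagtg

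A position near another gene's start was common in the set. A coding gene on the opposite strand started within 1000 bases for 19 of 81 genes (23.5%), such as Ndufa7 beside Rps28 at 10 bases and Sdhd beside Timm8b at 98 bases, against 9.09% of 15086 coding genes tested. The 84 genes lay on 19 chromosomes, and the nearest to the Ccdc82 gene was Atp5l, 31.6 Mb away on chromosome 9. The nearest to Htt on chromosome 5 was Cox7b2, 36.5 Mb away.

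The sum of FPKM over the genes taken by name for each complex, so without Cyc1, was alike in the 6 genotypes. The ranges of all groups overlapped. Complex I summed to 1409 ± 29.4 FPKM in Q140 mice (SD, n = 8), 1408 ± 23.3 FPKM in Q140 x Ccdc82+/- mice (n = 8), 1392 ± 34.2 FPKM in Q140 x Ccdc82-/- mice (n = 7), 1397 ± 24.7 FPKM in Ccdc82+/- mice (n = 8), 1404 ± 11.7 FPKM in Ccdc82-/- mice (n = 8) and 1409 ± 33.7 FPKM in WT mice (n = 8). Complex II was 186 ± 3.61 FPKM in Q140 mice and 184 ± 4.30 FPKM in WT mice, with the means of the other groups between 185 and 187 FPKM. Complex III was 403 ± 9.49 FPKM in Q140 x Ccdc82-/- mice and 408 ± 2.62 FPKM in Ccdc82-/- mice, and 410 ± 10.6 FPKM in Q140 mice and 413 ± 8.19 FPKM in WT mice. Complex IV was 1237 ± 35.4 FPKM in Q140 x Ccdc82-/- mice and 1255 ± 14.7 FPKM in Ccdc82-/- mice, and 1266 ± 28.8 FPKM in Q140 mice and 1274 ± 43.6 FPKM in WT mice. Complex V was 883 ± 17.9 FPKM in Q140 mice and 876 ± 14.7 FPKM in WT mice. In bulk cortex, fewer cells of a type and less RNA per cell cannot be told apart.

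**Figure D2:**
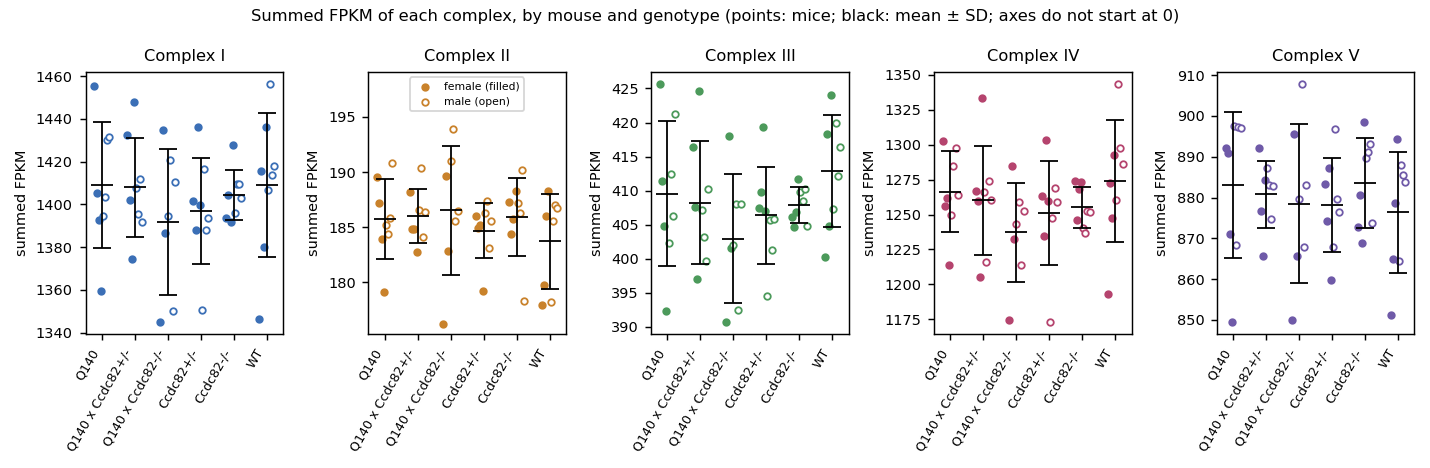
Summed FPKM of complexes I to V (linear axes that do not start at 0) in each mouse, by genotype; points are mice (filled, female; open, male), and black bars are means with SDs. The groups overlap in every panel, and complex IV has its lowest mean, 1237 FPKM, in Q140 x Ccdc82-/- mice.

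No respiratory chain gene passed an adjusted p of 0.05 in a comparison of genotypes in edgeR's quasi-likelihood test, which adjusted over all 19174 genes tested. For the pooled effect of Q140, averaged over the 3 Ccdc82 genotypes, 0 of 81 genes were called, against 0.876% of all genes, and 2 of 81 had an unadjusted p under 0.05, against 9.18% of all genes; limma on log2(FPKM + 1) also called 0, and DESeq2 called 1. For Q140 against WT, 0 genes were called (0.0313% of all) and 2 had an unadjusted p under 0.05, against 6.93% of all genes. For Q140 x Ccdc82+/- against Ccdc82+/- these counts were 0 (0.0313% of all) and 1 (5.18% of all), and for Q140 x Ccdc82-/- against Ccdc82-/- they were 0 (0.0209% of all) and 2 (4.17% of all). DESeq2 and limma called 0 in each of those 3 comparisons.

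The 81 genes differed by little between mice with and without Q140. Their log2 differences ran from -0.055 to 0.071 with a median of -0.012, against a median of 0.00085 over all genes, and 62 were lower and 19 higher. By complex, 27 of 37 genes of complex I were lower, 2 of 4 of complex II, 7 of 8 of complex III, 12 of 15 of complex IV and 14 of 17 of complex V. The median standard error of a single gene was 0.017, larger than the median difference. It is the error of single genes and does not measure that of the median over 81 genes. For 76 of the 81 genes the 95% interval lay within a change of 10% in either direction, and the other 5 were the low genes Ndufa4l2, Cox4i2, Cox6a2, Cox6b2 and Cox7a1. The split depended on the measure, in both directions. Limma on log2(FPKM + 1) put 48 genes lower and 33 higher, and RLE scaling 63 lower and 18 higher. Upper quartile scaling put 69 lower and 12 higher, with a median of -0.0026 over all genes. On the Ccdc82-/- background 67 of 81 genes were lower with Q140 (median -0.020), on the wild-type background 54 (median -0.0065), and on the Ccdc82+/- background 43 (median -0.00022); the genes covary between mice, so these counts are not counts of independent genes.

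**Figure D3:**
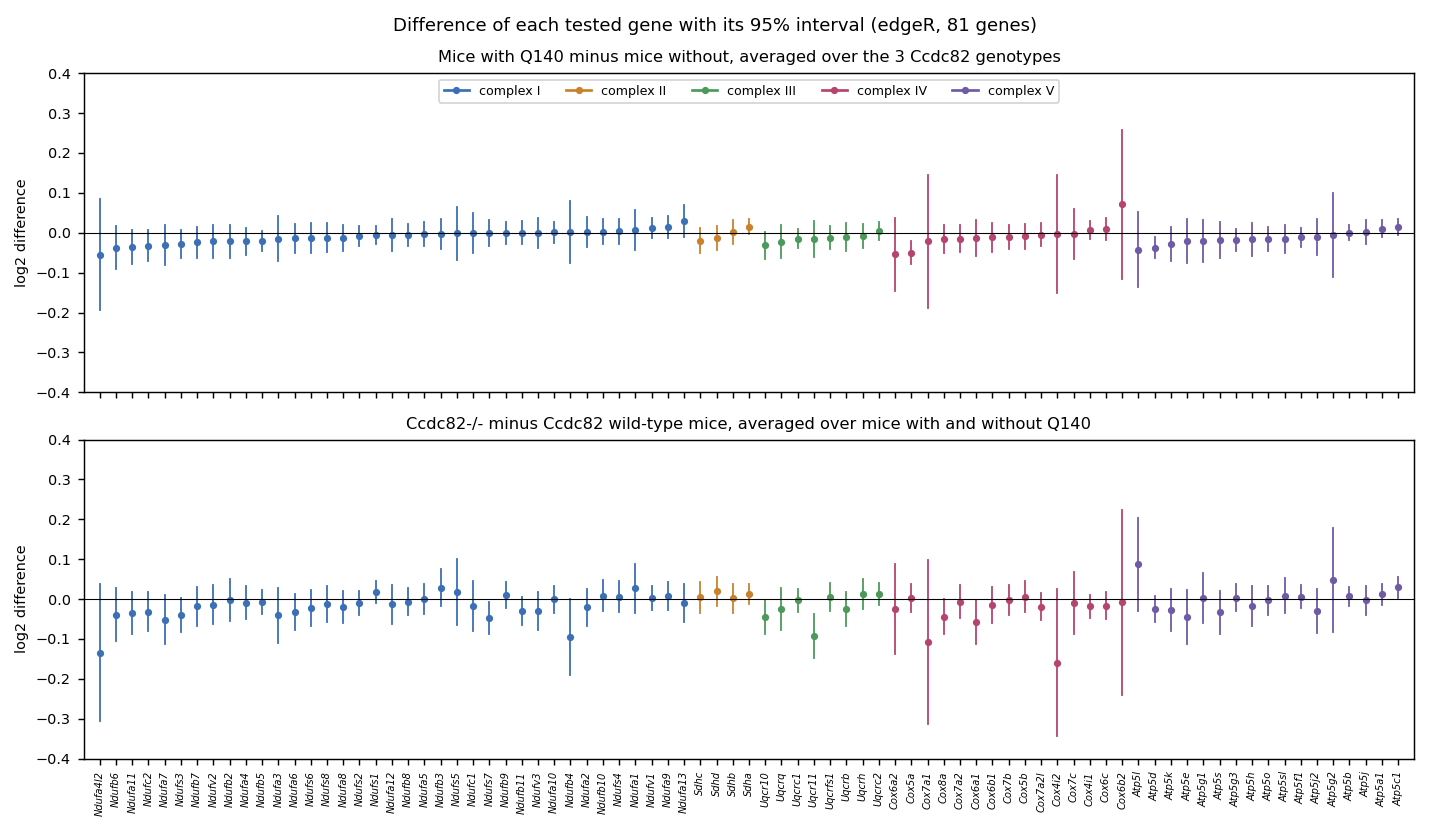
Log2 difference (points) with 95% interval (lines) for the 81 tested genes, coloured by complex; the upper panel shows mice with Q140 minus mice without, and the lower panel Ccdc82-/- minus Ccdc82 wild-type mice. All upper intervals span 0 except those of Cox5a at -0.050 and Atp5d at -0.038, and the widest belong to genes with few counts.

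Cox5a, a complex IV subunit on the matrix side (ENSMUSG00000000088, chromosome 9, 57521274 to 57532426, GRCm38), had the smallest p for Q140. Its lowest, median and highest levels were 106, 115 and 119 FPKM in Q140 mice, 108, 114 and 119 FPKM in Q140 x Ccdc82+/- mice, 108, 112 and 119 FPKM in Q140 x Ccdc82-/- mice, 114, 117 and 120 FPKM in Ccdc82+/- mice, 115, 118 and 125 FPKM in Ccdc82-/- mice, and 114, 116 and 119 FPKM in WT mice. Mice with Q140 reached lower than any mouse without it, while the highest mice of each group with Q140 lay within the range of mice without it. The mean was 114 ± 3.69 FPKM in the 23 mice with Q140 and 117 ± 2.64 FPKM in the 24 without (SD). The pooled log2 difference was -0.050 with a standard error of 0.014 and an adjusted p of 0.0854, a change of -3.38% with a 95% interval of -5.28% to -1.44%. It was called at an adjusted p of 0.0472 in DESeq2, 0.0431 with upper quartile scaling and 0.0152 with 2 surrogate variables. Without the fourth Q140 x Ccdc82+/- female its adjusted p was 0.0454. Of the 50-base stretches of Cox5a, 9.11% occur in other genes.

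Atp5d, the gene of the delta subunit in the central stalk of ATP synthase, was next. Mice with Q140 had 58.9, 60.7 and 64.2 FPKM as lowest, median and highest, and mice without had 58.0, 62.0 and 65.9 FPKM. The ranges overlapped almost fully, and the log2 difference of -0.038 (standard error 0.013) had an adjusted p of 0.242. The smallest p of complex III belonged to Uqcr10 (log2 difference -0.032, adjusted p 0.616) and Uqcrc1, a core subunit (-0.015, adjusted p 0.767). In complex I they belonged to the accessory subunit genes Ndufb5 (-0.021, adjusted p 0.650) and Ndufa11 (-0.036, adjusted p 0.674). Sdha had a log2 difference of 0.015 (adjusted p 0.698) and Sdhc -0.020 (adjusted p 0.782), and the others named for Q140 were Cox6a2 (-0.054, adjusted p 0.794) and Atp5k, the gene of subunit e (-0.029, adjusted p 0.749).

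Of 52 cell type markers tested, 3 were called for Q140 (5.77%), against 0.876% of all genes. They were 2 of 6 excitatory neuron markers, which fell, Camk2a (log2 difference -0.082, adjusted p 0.000378) and Nrgn (-0.087, adjusted p 0.00767), and 1 of 6 astrocyte markers, which fell too, Slc1a2 (-0.077, adjusted p 0.0123). Neither list moved one way in value: Neurod6 among the excitatory markers had a log2 difference of 0.036 (adjusted p 0.861), and Aqp4 and Gfap among the astrocyte markers 0.069 and 0.045 (adjusted p 0.523 and 0.901). The 6 excitatory markers summed to 1708 to 1933 FPKM in mice with Q140 and 1773 to 2060 FPKM in mice without, and the 6 astrocyte markers to 400 to 469 FPKM in mice with Q140 and 407 to 493.3 FPKM in mice without. None of these markers was at 0 in every library of a group, and their part in the differences of the respiratory chain genes was not tested.

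Loss of Ccdc82 left the set without a call as well. Counts of called genes were 0 of 81, against 0.00522% of all genes (Ccdc82 itself), in each of Ccdc82+/- against WT, Ccdc82-/- against WT, Q140 x Ccdc82+/- against Q140, Q140 x Ccdc82-/- against Q140, and the pooled Ccdc82+/- and Ccdc82-/- effects, where 2, 3, 0, 3, 1 and 6 of the 81 genes had an unadjusted p under 0.05. Over all genes those shares were 3.6%, 3.23%, 5.42%, 4.09%, 5.31% and 4.65% in the same order. The interactions of Q140 with Ccdc82+/- and with Ccdc82-/- gave 0 calls, as they did over all genes (0%), and 1 and 0 genes had an unadjusted p under 0.05, against 3.52% and 2.96% of all genes. DESeq2 and limma called 0 in these 8 comparisons.

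In the pooled effect of Ccdc82-/-, averaged over mice with and without Q140, 54 of 81 genes were lower and 27 higher, with a median log2 difference of -0.010. Over all genes 49.2% were higher, with a median of -0.00069. The 430 other coding genes under 1000 bases also averaged lower in Ccdc82-/- than in WT mice, at -0.0259 relative to WT. They were lower too in Q140 x Ccdc82-/- mice (-0.0329) than in Q140 mice (-0.0142). The 81 genes covary between mice, so the counts here are not counts of independent genes. By complex, 28 of 37 genes of complex I, 5 of 8 of complex III and 13 of 15 of complex IV were lower, while 4 of 4 of complex II and 9 of 17 of complex V were higher. The smallest p was that of Uqcr11, a small subunit of complex III (log2 difference -0.093, standard error 0.028, adjusted p 0.9999). Its lowest, median and highest levels were 47.1, 50.7 and 59.7 FPKM in Q140 x Ccdc82-/- mice against 52.5, 55.1 and 62.8 FPKM in Q140 mice, and 49.996, 53.9 and 56.1 FPKM in Ccdc82-/- mice against 52.7, 56.3 and 63.1 FPKM in WT mice. The ranges overlapped in both pairs. Values of the others chosen by p were -0.047 for Ndufs7, an iron-sulphur core subunit of complex I, -0.095 for Ndufb4, -0.046 for Uqcr10, -0.058 for Cox6a1, -0.045 for Cox8a, 0.030 for Atp5c1, the gamma subunit of the central stalk, -0.025 for Atp5d, 0.020 for Sdhd and 0.013 for Sdha, all with an adjusted p of 0.9999.

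Females and males differed in 1 respiratory chain gene, Uqcr11, of 81 tested, against 10.5% of all genes. It was higher in females: its lowest, median and highest levels were 49.996, 55.0 and 63.1 FPKM in 23 females and 47.1, 53.7 and 58.7 FPKM in 24 males, with wide overlap. Means were 55.8 ± 3.69 FPKM in females and 53.4 ± 2.82 FPKM in males (SD), and the log2 difference was 0.073 with a standard error of 0.023 and an adjusted p of 0.0300. The plot of Uqcr11 by genotype and sex shows the 4 males of the Q140 x Ccdc82-/- group at 47.1 to 50.7 FPKM, below all 3 females of that group. The call was lost without the fourth Q140 x Ccdc82+/- female (adjusted p 0.0541), without the fourth WT female (adjusted p 0.0508), and in 4 of 11 other settings. Each of the 19 numbers in the library names held mice of 1 sex, and with that number as a random block the adjusted p of Uqcr11 was 0.111, so the sexes and these numbers cannot be fully told apart. The genes next in order were Uqcr10 (log2 difference 0.049, adjusted p 0.0568), Ndufc1 (0.070, adjusted p 0.0605), Ndufa5 (0.042, adjusted p 0.0616) and the X-linked Ndufa1 (0.065, adjusted p 0.0805), all subunits of complex III or I and all higher in females in value. The difference of the Q140 effect between the sexes gave 0 calls (0% of all genes) and 2 genes with an unadjusted p under 0.05 (4.01% of all genes); the counts of calls in DESeq2 and limma were also 0.

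**Figure D4:**
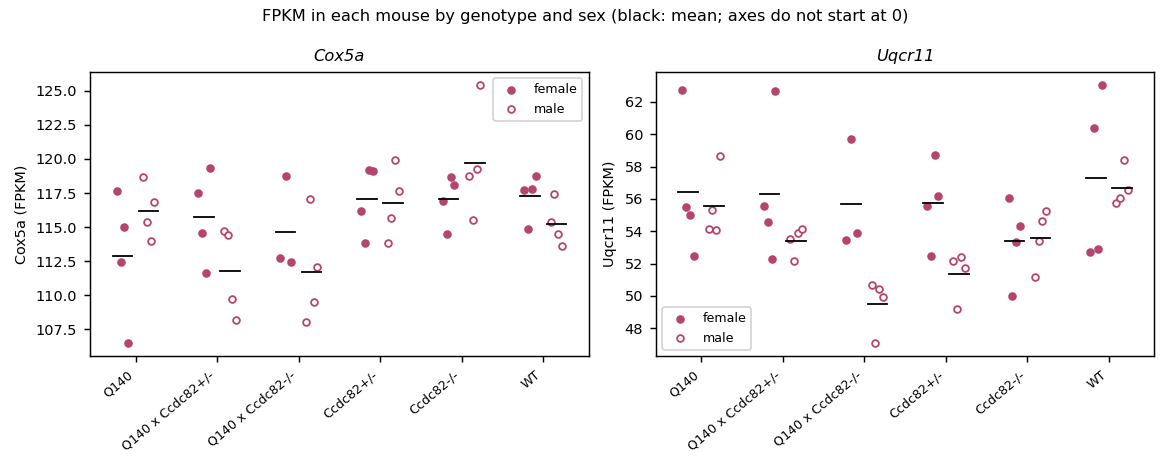
FPKM of Cox5a (left) and Uqcr11 (right) in each mouse by genotype and sex, on linear axes that do not start at 0; points are mice (filled, female; open, male) and black lines are means. Cox5a is lowest in mice with Q140, and Uqcr11 lies lowest in the males of the Q140 x Ccdc82-/- group, between 47.1 and 50.7 FPKM.

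Between females and males 4 of the 52 markers were called (7.69%), against 10.5% of all genes, and 8 of the 10 lists had 0. Of the endothelial cell and pericyte markers, 2 of 6 were higher in females, Cldn5 (log2 difference 0.21, adjusted p 0.00110) and Flt1 (0.082, adjusted p 0.0468), and the list summed to 48.1 to 54.9 FPKM in females and 45.6 to 54.5 FPKM in males. Of the inhibitory neuron markers, 2 of 6 were lower in females, Gad1 (-0.062, adjusted p 0.00563) and Gad2 (-0.052, adjusted p 0.00803), and the list summed to 362 to 417 FPKM in females and 363 to 426 FPKM in males. None of these markers was at 0 in every female or every male, and their part in the Uqcr11 difference was not tested.

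Genes that work with the chain showed no called change between genotypes. The 11 lists held 119 tested genes. They were cytochrome c1 and cytochrome c, assembly factors of complexes I to V, ubiquinone synthesis, and regulators of mitochondrial biogenesis. The others were the mitochondrially encoded subunits, the tricarboxylic acid cycle and reactive oxygen defence. Of the 119 genes, 0 were called in any of 12 genotype comparisons. Between females and males 9 were called (7.56%), against 10.5% of all genes, so their share was not above that of all genes. Of the complex I assembly factors, 2 of 15 were higher in females, Timmdc1 (log2 difference 0.098, adjusted p 0.00395) and Tmem70 (0.071, adjusted p 0.00896), and 1 was lower, Foxred1 (-0.074, adjusted p 0.0433). Bcs1l for complex III, 1 of 6, was higher in females (0.088, adjusted p 0.0180), as was Coa6 for complex IV, 1 of 19 (0.080, adjusted p 0.0321), and Atpaf1 for complex V, 1 of 5, was lower (-0.071, adjusted p 0.0309). In ubiquinone synthesis, 1 of 13 was higher, Coq8b (0.11, adjusted p 0.00473), and 1 was lower, Coq3 (-0.079, adjusted p 0.0484). Of the 13 mitochondrially encoded subunits, 13 had higher values in females with a median log2 difference of 0.066, and 1, mt-Nd2, was called (0.066, adjusted p 0.0207). Some of these genes had few counts. Medians were 58 for mt-Nd3, 32 for mt-Nd4l, 487 for mt-Co2, 370 for mt-Co3, 316 for mt-Atp6 and 164 for mt-Atp8, against 872300 for mt-Co1. The lists of cytochrome c1 and cytochrome c (2 genes), complex II assembly (4), biogenesis regulators (15), the tricarboxylic acid cycle (17) and oxygen defence (10) had 0 calls between the sexes.

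Between mice the levels were tight. The smallest between-mouse coefficients of variation in FPKM in complexes I to V were those of Ndufb5 (2.48%), Sdha (2.46%), Uqcrc2 (2.53%), Cox4i1 (2.90%) and Atp5b (1.95%), and the largest those of Ndufa4l2 (16.5%), Sdhc (3.68%), Uqcr11 (6.36%), Cox7b2 (70.7%) and Atp5g2 (12.7%). The largest of complexes I, IV and V belonged to genes with few counts. Part of the variation that remained was shared between genes. In deviations from the mean of a mouse's genotype and sex, the median correlation over 3240 pairs of genes was 0.219. Of these pairs 76.1% were positive. Over 183811551 pairs of the 19174 genes tested the values were -0.001 and 49.8%. By complex the median was 0.234 in I, 0.286 in II, 0.205 in III, 0.162 in IV and 0.152 in V. It was 0.217 between the 26 genes under 1000 bases, whereas 430 other coding genes under 1000 bases had 0.0262. Neither comparison set was matched to the respiratory chain genes in counts. In single mice between 8 and 66 of the 81 genes lay above their own group mean, with 8 in the third Q140 x Ccdc82-/- male and 66 in the fourth WT female. The genes share libraries and their normalization, so these correlations describe the data and carry no test.

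The same deviations, with the plate column of the library also removed, were set beside the mean of each marker list in the 47 mice. The genes went most with the inhibitory neuron markers, with a median r of 0.341 and 72 of 81 positive (88.9%, against 50.2% of all genes). The median was 0.16 with excitatory neuron markers (64 of 81 positive) and 0.148 with oligodendrocyte markers (69 positive). With the mitochondrially encoded subunits, several of which had few counts, the median was 0.0854 (55 positive). It was 0.0817 with microglia (54 positive), 0.0459 with endothelial cells and pericytes (48), -0.00183 with astrocytes (39), -0.016 with choroid plexus (35), -0.0359 with muscle (32), -0.0476 with meningeal fibroblasts (35) and -0.0758 with red blood cells (25).

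**Figure D5:**
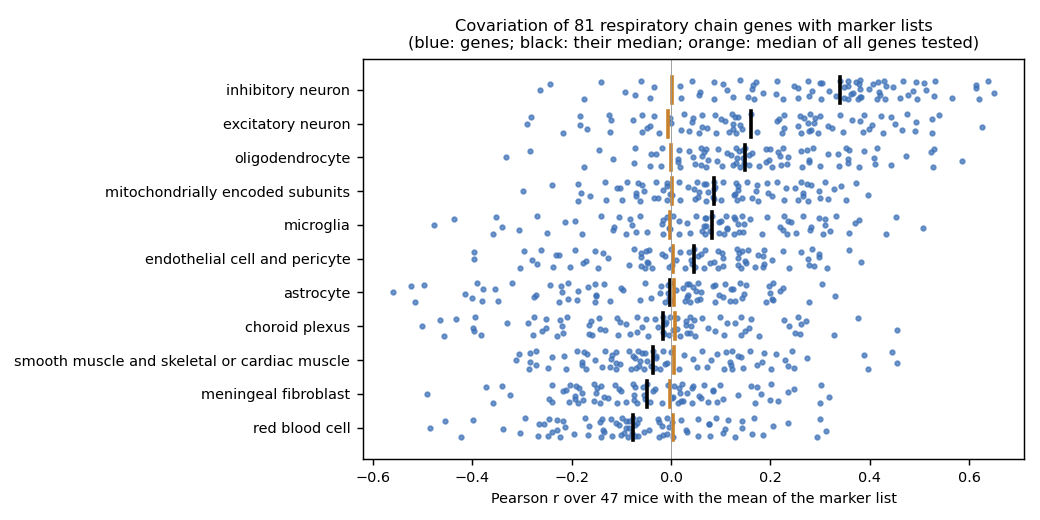
Pearson r over 47 mice (x axis) between each of 81 genes and the mean of each of 11 lists (rows); blue points are genes, black bars their median and orange bars the median of all genes tested. The inhibitory neuron list has the highest median, 0.341, and the astrocyte list a median close to 0.

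For 8 paralog genes with known tissue forms the single values are given as a description over the 47 mice, beside the median of 0.341 and the 88.9% of positive values of all 81 genes with the inhibitory neuron markers. Ndufa4 had a Pearson r of 0.651 and a Spearman rho of 0.593 with these markers, and an r of 0.654 without the 2 mice farthest from the median of the markers. Cox6a1 had an r of 0.531 and a rho of 0.527, and an r of 0.532 without the 2 mice. Cox4i1 had an r of 0.53 and a rho of 0.542, and an r of 0.493 without the 2 mice. Cox6a2, the muscle form, had an r of 0.46 and a rho of 0.491, and an r of 0.475 without the 2 mice. Cox7a2 had an r of 0.376 and a rho of 0.296, and an r of 0.348 without the 2 mice. Values were lower for Cox4i2, Cox7a1 and Ndufa4l2, with an r of 0.162, 0.0202 and 0.186 and a rho of 0.0875, 0.0103 and 0.168. Without the 2 mice their r was 0.0511, -0.00862 and 0.214. With the excitatory neuron markers r was 0.492 for Cox6a1, 0.451 for Ndufa4, 0.347 for Cox7a1 and 0.13 for Ndufa4l2. It was 0.129 for Cox7a2, 0.000656 for Cox4i1, -0.0253 for Cox4i2 and -0.0589 for Cox6a2. With the endothelial cell and pericyte list, Cox4i2, Cox7a1 and Ndufa4l2 had an r of 0.0595, -0.0188 and 0.0777. Their median counts of 43, 36 and 87 limit what could be seen.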

How the data were processed

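Cortex RNA was extracted with an RNeasy kit and sequenced from TruSeq stranded libraries, per the labels' protocols. Per the submitters' processing notes, the tools were HTSeq 0.12.3, STAR 2.7.5c and SAMtools 1.10, and the build was mm10 (GRCm38). The release of the annotation, the strand setting and the treatment of reads that map to several places are not given in the sources used here. The authors deposited raw counts per gene and FPKM values; the deposited FPKM used the same gene length in every library, and that length equals the union of GENCODE M21 exons for 79.3% of tested genes. All rows name a gene.

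Genes were filtered with filterByExpr (minimum count 10, minimum total 15), which left 19174 genes and 81 of the 82 members; Cox7b2 was not tested. Counts were scaled by TMM and fitted in edgeR 4.0.16 (robust quasi-likelihood) with 6 genotype means and sex over 47 libraries, and p-values were adjusted by Benjamini-Hochberg over all genes at 0.05. Standard errors and 95% intervals are those implied by the F statistic. The titles do not say that libraries come from separate cages or litters. The precision of a gene depends on its counts, which had medians of 6 to 46873 in the 82 genes. The fit was tested on simulated data in which genes vary independently, so that test does not cover genes that covary between mice. Coordinates are from GENCODE M21 (GRCm38), which holds 84 of 84 genes on the same chromosome, and promoters from RefSeq (GRCm38.p6).

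The genes named with values were the 2 highest and the lowest of each complex by mean FPKM, and every called gene. The 2 of smallest p per complex in the pooled Q140 and pooled Ccdc82-/- effects were named too. So were fixed sets of paralogs, the succinate dehydrogenase genes, and the extremes of variation. Values for Ndufc1, Ndufa5, Ndufa1 and Uqcr10 between the sexes, and the example neighbours, were chosen after the values were seen. The same holds for the Uqcr11 levels of the Q140 x Ccdc82-/- males, the level of Cyc1 and the counts of mitochondrially encoded subunits. The members, the 11 pathway lists and the 10 marker lists were chosen with earlier results of these data known. The alternatives were other scalings and filters, DESeq2 1.42.0, limma 3.58.1 on log2 FPKM with 2 pseudocounts, voom with a random block, plate position, 2 surrogate variables (sva 3.50.0), a replicate block, no sex term, only the groups compared, and leaving out each library. Correlations used log2 CPM with a prior count of 2.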

Additional observations from a re-analysis of the deposited data

Results flagged for a closer look

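In 156 checks of single genotype groups (5 complex sums and 21 of the genes named, in 6 groups), 15 had a library far from the others of its group, with a gap that was a large share of the group's range. Chance flags about 1 in 20 such groups. None was a complex sum.

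The fourth Q140 x Ccdc82+/- female was the highest of its group for Atp5d, at 64.21 FPKM against 59.05 to 60.73 in the others, and for Uqcr11, at 62.67 FPKM against 52.14 to 55.57. Among Q140 mice, the first female had 10.9 FPKM of Cox6a2 (others 7.364 to 8.989) and the fourth female 2.095 FPKM of Cox7a1 (others 1.017 to 1.518). The fourth Q140 x Ccdc82+/- male had 0.6871 FPKM of Cox7a1 (others 1.245 to 1.719).

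Among Q140 x Ccdc82-/- mice, the second male had 1.319 FPKM of Cox4i2 (others 0.8358 to 0.9964), the third male 5.976 FPKM of Atp5g1 (others 6.88 to 7.299) and the first female 28.34 FPKM of Sdhb (others 30.7 to 32.49). The first Ccdc82+/- male had 292.6 FPKM of Cox8a (others 322.4 to 348.3) and 97.81 FPKM of Sdha (others 90.44 to 93.56).

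Among Ccdc82-/- mice, the fourth male had 125.4 FPKM of Cox5a (others 114.5 to 119.2), the third female 58.0 FPKM of Atp5d (others 61.23 to 63.5) and the fourth female 32.57 FPKM of Sdhb (others 29.7 to 30.86). Among WT mice, the fourth female had 82.62 FPKM of Cox7a2 (others 75.27 to 78.52) and the second female 79.76 FPKM of Uqcr10 (others 70.82 to 74.23).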

How the results depend on the processing

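The count of respiratory chain genes called stayed at 0 in each of the 11 comparisons of genotypes other than the pooled Q140 effect, and for the difference of that effect between the sexes, in every setting run (each library was left out in turn for the pooled Q140 effect, the sexes and the difference of that effect between them, and for no other comparison). For the pooled Q140 effect it was 1, Cox5a, with upper quartile scaling, 2 surrogate variables and DESeq2, and 0 to 1 when each library was left out, with 1 only without the fourth Q140 x Ccdc82+/- female; the cause was not tested. The adjusted p of Cox5a ran from 0.0152 to 0.307 over 13 settings, and its log2 difference from -0.055 to -0.041. Between females and males the count was 6 with plate column, 2 with plate row, 2 with 2 surrogate variables (Ndufb2 and Atp5sl), 4 with DESeq2 and 0 with a random block for the number in the library names, against 1 as reported; limma on log2 FPKM called Atp5c1 in place of Uqcr11. It ran from 0 to 4 when each library was left out: 4 without the first Ccdc82-/- female or male, the fourth Q140 female or the second Q140 male; 3 without the fourth Q140 x Ccdc82-/- male or the third WT female; 2 without the first Q140 x Ccdc82-/- female, the second or the third Ccdc82-/- female, the first Ccdc82+/- female or the third or the fourth Ccdc82+/- male; and 0 without the fourth Q140 x Ccdc82+/- female or the fourth WT female. None of the 10 genes named for Q140, nor Uqcr11 between the sexes, changed sign in any setting.

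The replicate block, by sex and number in the titles, gave 0 calls for the pooled Q140 effect, with 20 genes higher and 61 lower, and changed no other call. Libraries with the same sex and title number showed little shared deviation, with a mean correlation of 0.0076 over 115 pairs. It was -0.0024 for other pairs of the same sex. A pairing of mice with little effect on expression would not be seen in this way. For the number in the library names the mean correlation was 0.0426 over 38 pairs of different genotypes, against -0.0038 for other pairs of the same sex. The correlation fitted for that number as a block was 0.142, and the main fit has no term for it. Counts limit Ndufa4l2, Cox4i2, Cox6b2, Cox7a1 and Cox7b2, which had medians of 87 or fewer.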
